A study of Mus musculus with 12 samples.

Results

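Intermediate filaments are rope-like polymers that give cells mechanical strength, and each cell type builds them from its own set of subunits. In all, 6 genes of this family that glia and their precursors use were followed across the 3 cell types of the mouse dentate gyrus, the part of the hippocampus where new neurons form in the adult. They were taken by name from the deposited table, which lists 50600 gene identifiers, and all 6 were found. Gfap, Vim, Nes and Synm encode cytoplasmic filament proteins (glial fibrillary acidic protein, vimentin, nestin and synemin), and Lmna and Lmnb1 encode lamins, the filament proteins that line the inner face of the nuclear envelope. GFAP is the filament protein by which mature astrocytes and radial glia-like stem cells are usually recognized. Vimentin is the main partner with which GFAP builds filaments in immature and reactive glia, whereas nestin and synemin do not form filaments by themselves and join those made of vimentin. Lamin A and lamin C both come from Lmna and are typical of differentiated cells, and lamin B1, a B-type lamin, comes from Lmnb1.

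Dentate gyri came from Nestin-GFP mice, aged 6 to 9 weeks, in which regulatory sequence of nestin drives green fluorescent protein (GFP), so every group carried this reporter and no untreated or mutant group was part of the design. Live cells without CD31, CD45, O1 and O4 (surface markers of endothelial cells, blood cells and oligodendrocytes) were sorted by GFP and by GLAST, the glutamate transporter encoded by Slc1a3. The Astrocyte group was positive for GLAST alone, the Progenitor group for GFP alone and the Stem cell group for both, with 4 libraries of 50 cells in each group. The study describes the libraries of a group as biological replicates, so the p-values rest on the spread between them. Progenitor and stem cell libraries were thus selected with a reporter of Nes, one of the genes described here, although its own transcript was not used in the sort.

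Total counts on genes were 5357232 to 6253680 in astrocytes, 9041498 to 12535028 in progenitors and 5031166 to 10435711 in stem cells. Levels are given as CPM, counts scaled to a common library total of 1000000 after TMM scaling (trimmed mean of M-values, edgeR's correction for the make-up of a library), and 3 counts, used as the floor of detection, corresponded to 0.207 to 0.651 CPM. Genes with at least 10 counts numbered 9430 to 11655 in astrocyte libraries, 13368 to 14175 in stem cell libraries and 16389 to 17015 in progenitor libraries, with no overlap between the cell types, so astrocyte libraries held the fewest genes and progenitor libraries the most. The labelled cell types were checked against marker genes. The summed level of 8 astrocyte markers, which include Slc1a3 of the sort, was 16982 to 23249 CPM in astrocytes, 25874 to 34058 CPM in stem cells and 8063 to 10873 CPM in progenitors, so the progenitor libraries held astroglial transcripts as well. Progenitors also held 626 to 1202 CPM of 5 neuroblast markers, against at most 299 CPM in astrocytes and 18.4 CPM in stem cells. They further held 1687 to 2681 CPM of 5 markers of oligodendrocyte precursors, against at most 326 and 139 CPM, and all 5 of these markers were detected in every progenitor library. Progenitor libraries a, c and d held 908 to 2091 CPM of 5 markers of mural cells, the contractile cells on small vessels, and library b held 38.4 CPM. The 5 markers of mature oligodendrocytes summed to 2614, 712, 283 and 98.0 CPM in astrocyte libraries a to d, against 68.5 to 129 CPM in progenitors and 72.0 to 417 CPM in stem cells, and astrocyte library a, the highest, had also the lowest Gfap of the astrocyte libraries and no Vim. The part of oligodendrocytes in these values was not tested. In pools of 50 cells, fewer cells of a type and less RNA per cell cannot be told apart.

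The members are related in sequence, which is shown first because it makes the 6 transcripts one family. All of the proteins share a coiled-coil rod whose end is among the most conserved stretches of the family. For Gfap and 3 other members the 10 codons of highest likeness at this place are printed, read on the coding strand of GRCm38 with GENCODE M21 gene models, and capitals mark each base that is identical to that of Gfap, which is itself in lower case.
Gfap: gccacctacaggaaattgctggagggcgaa
Synm: GCCACCTACAGGgccTTGtTGGAaGGaGAA
Nes: GCtACaTACAGGActcTGCTGGAGGctGAg
Lmna: catgCCTAtcGaAAgcTGCTGGAGGGCGAg
Synm shared 24 of the 30 bases with Gfap and encoded the same residue in 9 of the 10 codons. Nes shared 22 bases and 8 residues, and Lmna 20 bases and 8 residues. The Gfap stretch lies at chr11:102893043-102893072 on the reverse strand in exon 6 of 9. The Lmna stretch, at chr3:88484935-88484964 on the reverse strand, is in exon 6 of 12. In Nes (forward strand) and Synm (reverse strand) the stretch crosses the junction of exons 2 and 3 of 4, within chr3:87973106-87974820 and chr7:67739157-67751814, respectively.

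Gfap (ENSMUSG00000020932.14, chromosome 11, 102887336 to 102900912, reverse strand) was the member with the highest level in every cell type. It had 414, 923, 790 and 659 CPM in the 4 astrocyte libraries, 255, 449, 249 and 284 CPM in the 4 progenitor libraries, and 783, 470, 1249 and 536 CPM in the 4 stem cell libraries. All stem cell libraries were above all progenitor libraries, whereas astrocyte library a was below progenitor library b. Group means were 696 ± 217 CPM in astrocytes, 309 ± 94.6 CPM in progenitors and 759 ± 353 CPM in stem cells (SD, n = 4 each). Gfap was 2.49-fold higher in stem cells than in progenitors, a log2 fold change of 1.32 with a standard error of 0.33 and an adjusted p of 0.0351 (quasi-likelihood test of edgeR, Benjamini-Hochberg correction over 15427 genes). It was the only member called in this comparison, 1 of the 4 members tested, where 8.6% of all genes tested were called and 3.66% were called as higher. Stem cell libraries lay wholly above progenitor libraries for 7.71% of the genes tested.

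Between astrocytes and progenitors, the log2 fold change of Gfap was 1.15 with a standard error of 0.34, which did not pass the threshold (adjusted p = 0.065, edgeR). None of the 4 members tested was called in this comparison, in which 8.63% of all genes were called. Gfap came under the threshold when astrocyte library a was left out (adjusted p = 0.0214) and when progenitor library b was left out (adjusted p = 0.0489). The call in stem cells against progenitors was kept without progenitor library b (0.0344), stem cell library 2 (0.0231) or stem cell library 4 (0.0404). It was lost without any of the other 5 libraries, with adjusted p-values between 0.0662 and 0.112, and in a fit of all 12 libraries (0.0707). Astrocytes and stem cells differed in Gfap by a log2 fold change of -0.13 with a standard error of 0.37 (adjusted p = 0.952), and no member was among the 0.0468% of genes called in that comparison. Astrocyte and stem cell libraries are neighbours in the order of Gfap levels, and they do not differ beyond their spread. Between cell types, the lower Gfap in progenitors went with lower summed astrocyte markers and with higher sums for oligodendrocyte precursors and neuroblasts. Within progenitors, library b, highest in Gfap, had the highest neuroblast sum (1202 CPM), the lowest oligodendrocyte precursor sum (1687 CPM) and 8391 CPM of astrocyte markers. Library a had the highest astrocyte marker sum of the progenitors (10873 CPM) with 255 CPM of Gfap. The part of these cell types in the result was not tested.

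Vim (ENSMUSG00000026728.9, chromosome 2, 13573927 to 13582826, forward strand) was lowest in astrocytes and had its highest mean in progenitors. Its level was 0, 37.8, 1.80 and 77.7 CPM in the astrocyte libraries, 374, 89.2, 95.4 and 134 CPM in the progenitor libraries, and 168, 49.6, 220 and 56.1 CPM in the stem cell libraries. Every astrocyte library was below every progenitor library, and stem cell libraries overlapped with both. The mean of Vim thus had the same order over the cell types as the number of genes with at least 10 counts, and the part of this number in the result was not tested. The mean was 29.3 ± 36.6 CPM in astrocytes, 173 ± 135 CPM in progenitors and 123 ± 84.2 CPM in stem cells (SD, n = 4). Astrocytes differed from progenitors by a log2 fold change of -2.57 with a standard error of 1.39 (adjusted p = 0.376, edgeR), so the mean difference did not pass the test even though the libraries did not overlap. For 14.9% of all genes tested in this comparison, the astrocyte libraries were wholly below the progenitor libraries. The exact permutation test of log2(CPM + 1) gave the smallest p that 4 against 4 libraries can reach, 0.0286 (two-sided), or 0.171 after adjustment over the 18 tests of 6 genes in 3 comparisons. Stem cells differed from progenitors by -0.46 with a standard error of 0.59 on the log2 scale (adjusted p = 0.74) and astrocytes from stem cells by -2.08 with a standard error of 1.37 (adjusted p = 0.719). Progenitor library a carried 5427 of the Vim counts, and without it the difference between stem cells and progenitors turned to 0.21. Library a also had the highest sum of 5 ependymal markers, 163 CPM, against 17.3 to 51.6 CPM in the other progenitor libraries. Astrocyte and stem cell libraries had at most 99.7 CPM of them. The 5 mural markers summed to 2091 CPM in library a and to 2074 CPM in library c, which had 95.4 CPM of Vim. The part of ependymal and mural cells in the Vim level was not tested. With 1 library left out at a time, the log2 fold change between astrocytes and progenitors ranged between -3.72 (without astrocyte library d) and -1.88 (without progenitor library a), and it was called in none of these fits.

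**Figure D1:**
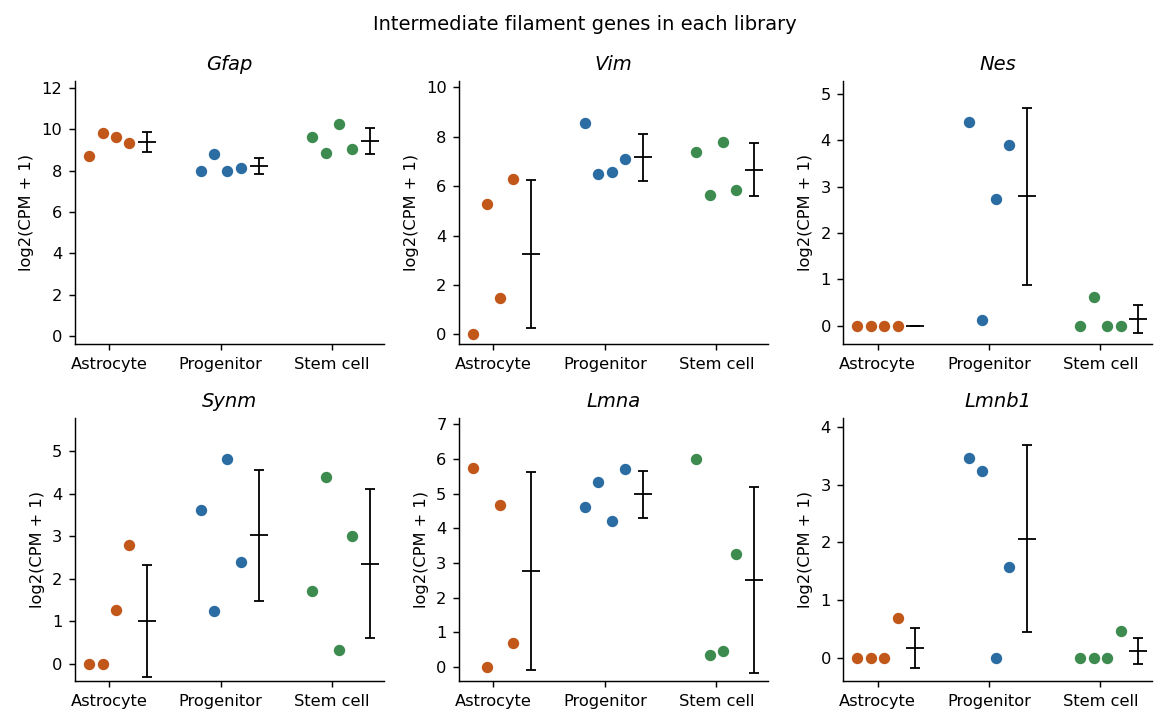
Level of the 6 intermediate filament genes in each library as log2(CPM + 1), with 1 panel per gene, 1 point per library in the order a to d or 1 to 4, and mean ± SD (n = 4) beside the points. Gfap lies close together in every cell type, whereas Vim, Synm and Lmna start from 0 and spread widely in astrocytes, and Nes and Lmnb1 are above the floor almost entirely in progenitor libraries.

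Nes (ENSMUSG00000004891.16, chromosome 3, 87971078 to 87980451, forward strand) was detected almost entirely in progenitors. None of the 4 astrocyte libraries held a count, which allows up to 3 counts in each. The progenitor libraries held 291, 1, 62 and 163 counts, or 20.04, 0.0814, 5.66 and 13.95 CPM, and the stem cell libraries held 0, 4, 0 and 0 counts. Stem cells had been sorted as positive for the nestin reporter, and 3 of their 4 libraries had no Nes count. Counting error sets a limit of 3 counts per library there, and the sort and the transcript are different measures of nestin. The libraries without Nes were of the cell types with fewer genes at 10 counts or more, and the part of this in the difference was not tested. The mean in progenitors was 9.93 ± 8.83 CPM (SD, n = 4), at least 16.5-fold higher than the floor of 3 counts in each astrocyte library. Nes did not pass the count filter of the edgeR fits, at least 10 counts in at least 4 of 8 libraries, because progenitor library b held 1 count, and it therefore had no adjusted p there. DESeq2, whose filter differs, called it lower in astrocytes (adjusted p = 0.000488) and in stem cells (adjusted p = 0.00353), where it called 16.7% and 17% of all genes it tested. The study applied DESeq2 after a coverage criterion, CLEAR, which keeps transcripts with even read coverage and which Nes did not meet. It regards a call of higher Nes in progenitors made without CLEAR as false. In edgeR without the filter the adjusted p was 0.0954 against astrocytes and 0.101 against stem cells. Without progenitor library b, the one with 1 Nes count, edgeR gave 0.0445 and 0.0494. It gave 0.0688 to 0.0783 against astrocytes without an astrocyte library, and 0.0617 to 0.134 against stem cells without a stem cell library. In all of these fits Nes passed the count filter only through progenitor libraries, where it was high. By the exact permutation test of log2(CPM + 1), p was 0.0286 against astrocytes and 0.0571 against stem cells (two-sided, adjusted p = 0.171 and 0.206). Nestin is also known from cells of blood vessels, and the mural markers were therefore set beside it. They summed to 2091, 38.4, 2074 and 908 CPM in progenitor libraries a to d, so the library with the least mural transcript was also the one almost without Nes, while library c had as much of them as library a with less Nes. Astrocyte libraries held 33.1 to 191 CPM of the mural markers and stem cell libraries 51.9 to 98.0 CPM, with Nes at or near 0. Endothelial markers summed to at most 4.65 CPM in progenitors and 7.70 CPM in astrocytes. In stem cell library 2, the only stem cell library with Nes counts, they summed to 97.4 CPM, against at most 7.62 CPM in the other stem cell libraries. The part of mural and endothelial cells in the Nes signal was not tested.

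Synm (ENSMUSG00000030554.16, chromosome 7, 67730160 to 67759742, reverse strand) was low and uneven. It had 0, 0, 1.40 and 5.91 CPM in astrocytes, 11.2, 1.38, 27.4 and 4.28 CPM in progenitors, and 2.27, 20.2, 0.249 and 7.08 CPM in stem cells. All 3 groups overlapped. Mean levels were 1.83 ± 2.80, 11.1 ± 11.6 and 7.44 ± 8.96 CPM (SD, n = 4). No difference passed the test, with log2 fold changes of -2.60 (SE 1.69, adjusted p = 0.481) in astrocytes against progenitors, -0.56 (SE 1.22, adjusted p = 0.861) in stem cells against progenitors and -2.03 (SE 1.77, adjusted p = 0.807) in astrocytes against stem cells. Progenitor library c decided the sign of the second of these, which became 0.40 without it. The first lay between -4.53 (without astrocyte library d) and -1.63 (without progenitor library c), and the third between -3.96 (without astrocyte library d) and -0.82 (without stem cell library 2). Of the exonic length of Synm, 6.43% overlaps with genes on the other strand (Gm45102 and Ttc23), from which its reads cannot be told apart in counts made without strand, and the other 5 members had no such overlap. Vim, Nes and Synm were each lowest, among the 4 progenitor libraries, in library b, which was also the library with the highest Gfap.

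Lmna (ENSMUSG00000028063.15, chromosome 3, 88480147 to 88509956, reverse strand) was present in every progenitor library and in only some libraries of the other cell types. Progenitors had 23.5, 39.8, 17.7 and 51.6 CPM. Astrocytes had 52.7, 0, 24.5 and 0.611 CPM, and stem cells had 62.6, 0.262, 0.374 and 8.57 CPM. The highest library of each of these cell types was thus above every progenitor library and the lowest was at or under the floor. Means were 19.5 ± 24.9 CPM in astrocytes, 33.2 ± 15.5 CPM in progenitors and 17.96 ± 30.04 CPM in stem cells (SD, n = 4). Neither the difference between astrocytes and progenitors (log2 fold change -0.82, SE 1.49, adjusted p = 0.842) nor that between stem cells and progenitors (-0.87, SE 1.29, adjusted p = 0.785) passed the test. Stem cell library 1 carried most of the stem cell signal, and without it the log2 fold change against progenitors was -3.41 (adjusted p = 0.135). Between astrocytes and progenitors, the log2 fold change was -1.97 without astrocyte library a and -0.41 without astrocyte library b, and neither was called. Astrocytes and stem cells differed by 0.10 with a standard error of 1.93 (adjusted p = 0.994).

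Lmnb1 (ENSMUSG00000024590.8, chromosome 18, 56707813 to 56753424, forward strand) was at or under the floor in all 8 libraries of astrocytes and stem cells, with 3 counts in astrocyte library d, 2 counts in stem cell library 4 and 0 in the rest. Progenitor libraries a to d held 146, 103, 0 and 23 counts, or 10.1, 8.38, 0 and 1.97 CPM. The mean in progenitors, 5.10 ± 4.87 CPM (SD, n = 4), was at least 8.46-fold higher than the floor in astrocytes and at least 12.48-fold higher than that in stem cells, yet the groups overlapped because library c had none. It did not pass the count filter of edgeR. DESeq2 gave an adjusted p of 0.0287 against stem cells and 0.0755 against astrocytes, and edgeR without the filter gave 0.173 and 0.25. In stem cells against progenitors DESeq2 called 17% of all genes it tested, and Lmnb1 entered this fit only through progenitor libraries, where it was high. The exact permutation test gave p = 0.143 for both (two-sided, adjusted p = 0.286). The summed level of 7 proliferation genes (Mki67, Top2a, Pcna, Mcm2, Ccnb1, Cdk1 and Aurkb) was 198, 511, 74.6 and 35.3 CPM in progenitor libraries a to d, against at most 65.4 CPM in astrocytes and 84.8 CPM in stem cells. The libraries a and b, which had the highest Lmnb1, also had the highest sums, but library c, with more of these transcripts than library d, had no Lmnb1. The parts of dividing cells and of the larger number of genes detected in progenitor libraries in the Lmnb1 signal were not tested.

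**Figure D2:**
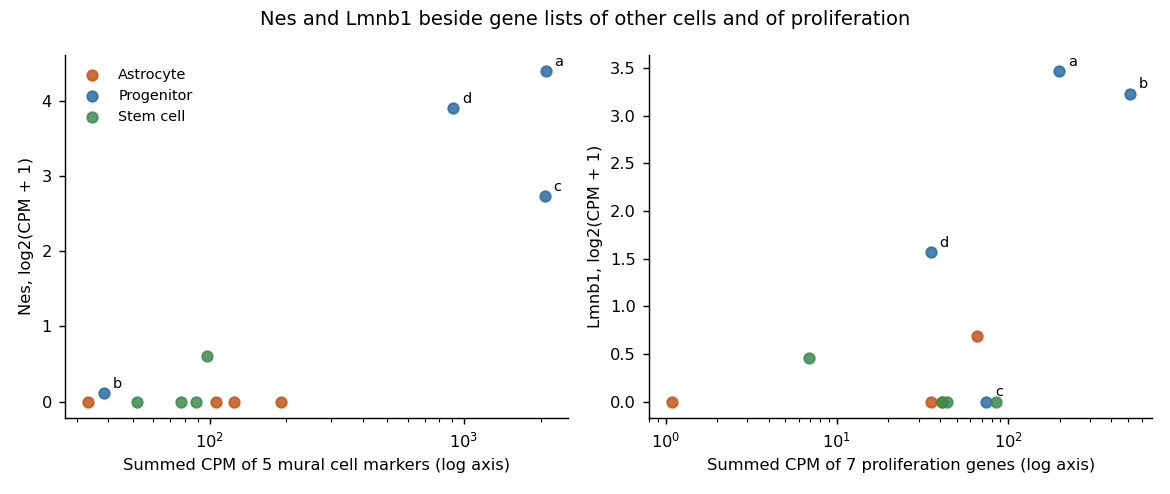
Nes against the summed CPM of 5 mural cell markers (left) and Lmnb1 against the summed CPM of 7 proliferation genes (right), with 1 point per library, log2(CPM + 1) on the vertical axes, logarithmic horizontal axes and letters for the 4 progenitor libraries. Progenitor library b lies with astrocytes and stem cells on the left at 38.4 CPM of mural markers, and on the right it has the highest sum, 511 CPM.

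Levels of different genes were compared per kilobase of exon, since longer transcripts collect more reads. In astrocytes, Gfap had 165 ± 51.4 CPM per kb, and the lowest library exceeded the highest library of Vim, which followed with 6.18 ± 7.72 CPM per kb. Lmna (3.34), Synm (0.230), Lmnb1 (0.0516) and Nes (0) followed in that order of mean CPM per kb, each overlapping with the next. In progenitors, Gfap had 73.3 ± 22.4 and Vim 36.5 ± 28.5 CPM per kb, and these overlapped, since Vim exceeded Gfap in library a. Both were followed by Lmna at 5.68 ± 2.65 CPM per kb, with every library below every Vim value. Lmnb1 (1.72), Nes (1.55) and Synm (1.39) came last in progenitors and did not differ beyond their spread. In stem cells, Gfap had 180 ± 83.8 CPM per kb, above all values of Vim (26.0 ± 17.7 CPM per kb), and Vim was above Lmna (3.08 ± 5.15 CPM per kb) in each of the 4 libraries although their ranges touched. Gfap and then Vim was thus the order of the mean level per kb in every cell type, and the order of the others was not resolved.

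Shares within a library need no scaling between libraries, so the make-up of the cytoplasmic filament transcripts was computed next. Of the counts per kb of Gfap, Vim, Nes and Synm together, Gfap took 100%, 96.5%, 99.7% and 90.1% in the astrocyte libraries. It took 42.1%, 84.9%, 70.7% and 68.4% in the progenitor libraries and 83.9%, 89.5%, 86.5% and 90.9% in the stem cell libraries. Astrocytes were above progenitors without overlap, while progenitor library b was within the stem cell range and stem cell library 4 was above astrocyte library d. The means were 96.6% ± 4.59, 66.5% ± 17.9 and 87.7% ± 3.14 (SD, n = 4). The difference between astrocytes and progenitors was 30.1 percentage points (two-sided exact permutation test, p = 0.0286, the smallest this design allows). The differences of 21.2 points between stem cells and progenitors and of 8.90 points between astrocytes and stem cells each had p = 0.0571 by the same exact permutation test. After adjustment over the 12 tests of 4 measures, all 3 had an adjusted p of 0.137. The log2 ratio of Gfap to Vim counts averaged 7.07 in astrocytes, 1.06 in progenitors and 2.81 in stem cells, with exact permutation p-values of 0.0286 for astrocytes against progenitors, 0.0571 for stem cells against progenitors and 0.0857 between astrocytes and stem cells (after adjustment 0.137, 0.137 and 0.171). Astrocyte library a had no Vim count, so its ratio was set by the 0.5 counts added, and the difference between astrocytes and progenitors, 6.01, was 6.61 with 0.1 added and 5.74 with 1 added.

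The summed level of the 4 cytoplasmic genes was 172 ± 53.8 CPM per kb in astrocytes, 113 ± 27.0 in progenitors and 207 ± 99.9 in stem cells (SD, n = 4). The differences of progenitors from astrocytes (p = 0.114) and from stem cells (p = 0.143) did not exceed the spread between libraries in the exact permutation test. With library totals in place of TMM-scaled ones, the difference between astrocytes and progenitors moved from 58.7 to 13.4 CPM per kb (adjusted p = 0.857, exact permutation test). The log2 ratio of Lmna to Lmnb1 counts averaged 4.22 in astrocytes, 4.19 in progenitors and 4.90 in stem cells, and no difference was detectable (exact permutation p between 0.714 and 1). Because Lmnb1 had 0 counts in 7 libraries, progenitor library c among them, this ratio depended on the 0.5 counts added before the logarithm.

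**Figure D3:**
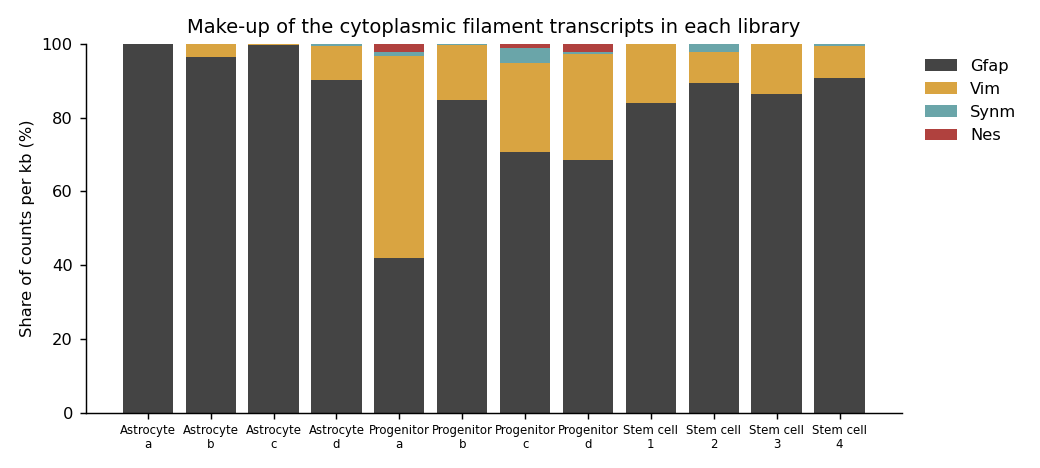
Share of counts per kb, in percent, that Gfap, Vim, Synm and Nes took among these 4 cytoplasmic filament genes in each of the 12 libraries (stacked bars, 1 per library). Gfap takes 90.1% to 100% in astrocytes, 83.9% to 90.9% in stem cells and 42.1% to 84.9% in progenitors, where Vim fills most of the rest.

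**Figure D4:**
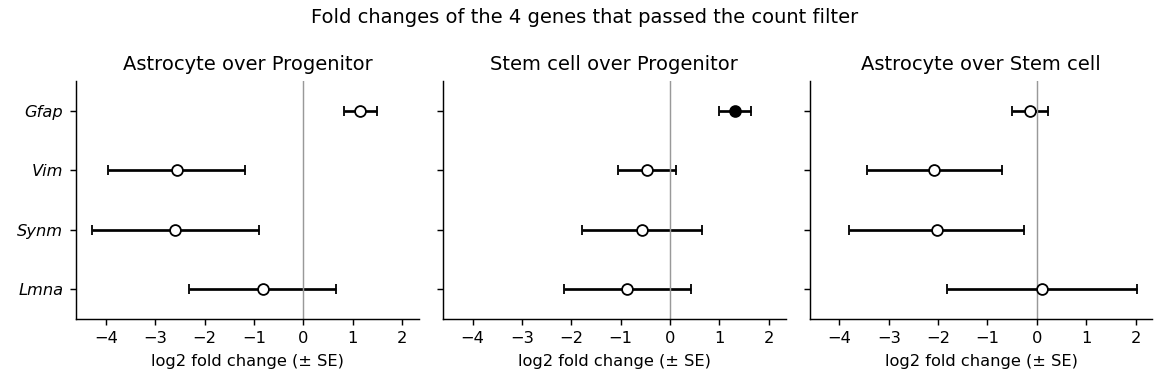
Log2 fold change ± standard error from edgeR for the 4 filament genes that passed the count filter, in the 3 comparisons of cell types (n = 4 libraries each). The filled point, Gfap in stem cells over progenitors at 1.32, is the only one under the adjusted p threshold of 0.05, and the errors of Vim, Synm and Lmna are 0.59 to 1.93.

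The spread between libraries of a cell type was itself different between the members. The coefficient of variation of the CPM of Gfap was 31.1% in astrocytes, 30.6% in progenitors and 46.5% in stem cells. That of Vim was 125%, 78.0% and 68.2%, and that of Lmna was 128%, 46.7% and 167%. At least 10 counts were reached by Gfap in all 12 libraries, by Vim in 10, by Synm and Lmna in 8 each, and by Nes and Lmnb1 in 3 each. A member of low level was therefore often high in a library of 50 cells and near 0 in the next of the same cell type.

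The pattern of the members over the 12 libraries was compared as a description. Libraries share depth and cell type, so no p is given. Gfap and Nes had a Pearson correlation of log2(CPM + 1) of -0.79, which was -0.45 after each cell type's mean was removed. Gfap and Synm had -0.63 both before and after that step, and Gfap and Vim had -0.12 before and 0.46 after. The genes most like Gfap among 12149 candidates were Tmem208 (r = 0.91), a membrane protein of the endoplasmic reticulum, the long noncoding RNA gene Lppos (0.87) and Nrcam (0.87), a neuronal and glial adhesion molecule. Those most like Vim were Hspa14 (0.97), a chaperone of the Hsp70 family, Ephx1 (0.96), an epoxide hydrolase, and Atad1 (0.96), an ATPase of the outer mitochondrial membrane. Those most like Synm were Gucy1a1 (0.85), a subunit of soluble guanylate cyclase, Slx4ip (0.84) and Gm9725 (0.84), of whose exonic length 41.0% overlaps with Usp38 on the other strand. Those most like Lmna were Slc7a6 (0.93), an amino acid transporter, Clip3 (0.89), a microtubule linker protein, and Nme1 (0.88), a nucleoside diphosphate kinase, each over 12 libraries. Nes and Lmnb1 had too few counts for such a list.

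The other genes with which these filaments work were taken from lists by role. Of 8 genes for proteins that link filaments to other structures or chaperone them (Plec, Dst, Macf1, Dsp, Ppl, Evpl, Cryab and Hspb1), 4 were tested in astrocytes against progenitors, 5 in stem cells against progenitors and 4 in astrocytes against stem cells. In each of the comparisons with progenitors, 1 was called as higher, where 2.45% of all genes were called as higher in astrocytes and 3.66% in stem cells, and none was called between astrocytes and stem cells. The gene was Macf1 in both, a giant cytoskeletal linker of actin and microtubules of the plakin family. It had 2984 ± 336 CPM in astrocytes, 866 ± 126 CPM in progenitors and 1750 ± 248 CPM in stem cells (SD, n = 4), and no libraries of different cell types overlapped. Astrocyte libraries lay wholly above progenitor libraries for 6% of all genes tested and above stem cell libraries for 3.71%. Its log2 fold change was 1.76 (SE 0.18, adjusted p = 0.00122) for astrocytes over progenitors, 1.04 (SE 0.16, adjusted p = 0.00401) for stem cells over progenitors and 0.76 (SE 0.19, adjusted p = 0.109) for astrocytes over stem cells. The median log2 fold change of the tested genes of this list was 0.65 against 0.03 for all genes in astrocytes over progenitors, and 0.32 against -0.04 in stem cells over progenitors.

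Of 13 proteins that bind the lamina or join it to the cytoskeleton (Lbr, Emd, Tmpo, Banf1, Lemd2, Lemd3, Ankle2, Sun1, Sun2, Syne1, Syne2, Tor1a and Tor1aip1), all were tested in each comparison, 1 was higher in astrocytes than in progenitors, 2 in stem cells than in progenitors and 1 in astrocytes than in stem cells, and none was lower. Over all genes, 2.45%, 3.66% and 0.0468% were called as higher in these comparisons. Syne1, which encodes nesprin-1, the outer nuclear membrane protein that ties the nucleus to the cytoskeleton, was called in all 3. It had 5774 ± 916 CPM in astrocytes, 1152 ± 343 CPM in progenitors and 2355 ± 296 CPM in stem cells (SD, n = 4), again with no overlap between cell types. The log2 fold change was 2.30 (SE 0.23, adjusted p = 0.000963) for astrocytes over progenitors, 1.05 (SE 0.20, adjusted p = 0.0109) for stem cells over progenitors and 1.28 (SE 0.17, adjusted p = 0.0339) for astrocytes over stem cells. The last of these calls was kept in 2 of 8 fits that left out a library, with adjusted p-values up to 0.197, and the calls against progenitors were kept in all 8. Without astrocyte library b or c, or without any of the stem cell libraries, it was lost, although the log2 fold change stayed between 1.15 and 1.34. Exonic length was 40.5 kb for Syne1 and 31.4 kb for Macf1, and the part of length in the differences of both genes was not tested. Tor1aip1, a lamin-binding protein of the inner nuclear membrane, had 185 ± 22.6 CPM in stem cells and 102 ± 17.8 CPM in progenitors (log2 fold change 0.88, SE 0.20, adjusted p = 0.0229). Reads from 12.9% of its exonic length cannot be told apart from those of Tor1aip2, and leaving out progenitor library a, b or d or stem cell library 1 ended the call (adjusted p up to 0.0701), as did a fit of all 12 libraries (adjusted p = 0.679) and a fit without the count filter (adjusted p = 0.0617). The median of the list was close to that of all genes in the 3 comparisons, with -0.19 against 0.03, -0.26 against -0.04 and -0.08 against 0.14. Of 5 enzymes that process lamins after translation (Fnta, Fntb, Zmpste24, Icmt and Rce1), all were tested and none was called in any comparison. Zmpste24, the protease that makes mature lamin A, had 47.2 ± 35.5 CPM in astrocytes, 48.4 ± 17.9 CPM in progenitors and 62.7 ± 15.2 CPM in stem cells. Fnta, the shared subunit of the enzymes that attach farnesyl and geranylgeranyl groups, had 48.7 ± 36.2, 83.2 ± 23.4 and 89.7 ± 19.4 CPM.

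Among the neuronal filament genes (Nefl, Nefm, Nefh, Ina and Prph), 3 were tested in each comparison, and 1 was higher in astrocytes than in progenitors, where 2.45% of all genes were called as higher. Nefl, the light neurofilament subunit, had 705, 128, 127 and 35.3 CPM in the 4 astrocyte libraries and at most 12.1 CPM in progenitors, with a log2 fold change of 5.58 (SE 1.47, adjusted p = 0.0412, edgeR). The call was kept in 1 of 8 fits without a library and was lost without astrocyte library a, b or c or any progenitor library (adjusted p up to 0.105), as it was with counts thinned to the smallest library (adjusted p = 0.0529). Without astrocyte library a the log2 fold change was 4.28. Nefl reached 10 counts in 4 astrocyte and 2 progenitor libraries, so it passed the count filter only through astrocytes. Of its exonic length, 32.8% overlaps with Nefm on the other strand. The 5 neuronal markers summed to 1054, 308, 451 and 156 CPM in the astrocyte libraries and to 230 to 333 CPM in progenitors. Single genes of this list went opposite ways. Mean Snap25 (306 against 82.7 CPM), Syt1 (68.9 against 17.2 CPM) and Calb1 (50.2 against 0.0172 CPM) were higher in astrocytes than in progenitors. Mean Prox1 (43.9 against 164 CPM) and Rbfox3 (23.2 against 29.5 CPM) were lower. In astrocytes the SD exceeded the mean for each of them but Snap25 (SD 206 CPM). The highest and the lowest astrocyte library for Nefl were the same as for the summed markers, and the part of these markers in the result was not tested. Of 7 further filament genes (Des, Sync, Krt8, Krt18, Krt10, Krt19 and Lmnb2), 2 were tested and none was called. Lmnb2, the other B-type lamin, had 42.6 ± 50.1 CPM in astrocytes, 34.9 ± 24.1 CPM in progenitors and 13.1 ± 17.5 CPM in stem cells (SD, n = 4), and Krt10, a keratin, had 59.5 ± 36.2, 19.2 ± 3.74 and 22.6 ± 8.40 CPM.

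**Figure D5:**
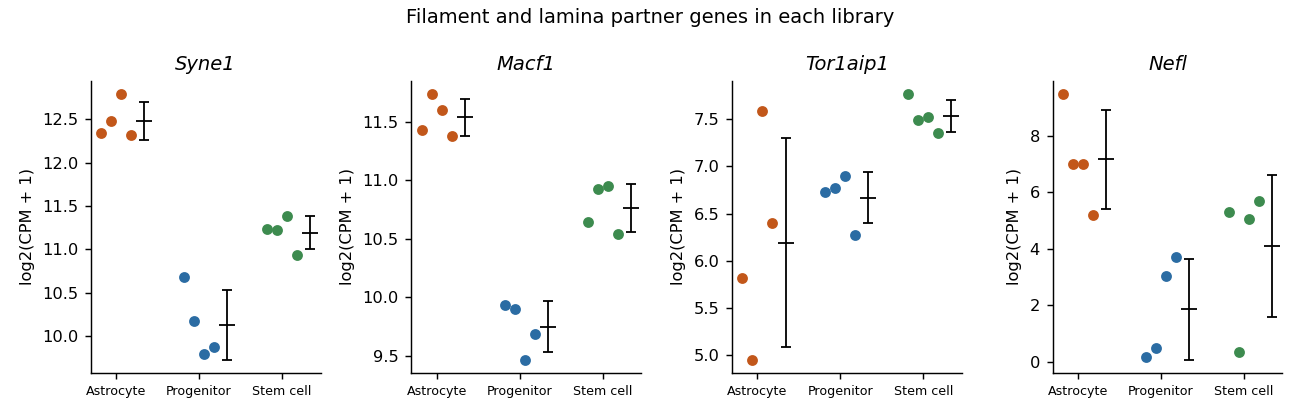
Level of Syne1, Macf1, Tor1aip1 and Nefl in each library as log2(CPM + 1), with 1 point per library and mean ± SD (n = 4), on vertical axes that do not start at 0. Syne1 and Macf1 separate all 3 cell types in the order astrocyte, stem cell, progenitor, Tor1aip1 separates stem cells from progenitors, and Nefl spreads from 35.3 to 705 CPM in astrocytes.

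Gfap and Vim are also known to rise in reactive glia, so 12 other genes of that state were counted (Lcn2, Steap4, S1pr3, Timp1, Cxcl10, Cd44, Osmr, Cp, Serpina3n, Aspg, Stat3 and Socs3). In stem cells against progenitors, where Gfap was higher, 7 of them were tested, none was called as higher and 2 were called as lower, while 4.95% of all genes tested were called as lower. These were Cp, the copper-binding ferroxidase ceruloplasmin, with 0.714 ± 1.11 CPM in stem cells and 76.7 ± 19.1 CPM in progenitors (log2 fold change -6.73, SE 1.03, adjusted p = 0.0041, edgeR), and S1pr3, a sphingosine-1-phosphate receptor, with 1.68 ± 0.683 and 25.5 ± 15.7 CPM (log2 fold change -3.89, SE 0.81, adjusted p = 0.0153). Cp reached 10 counts in 4 progenitor libraries and 1 stem cell library, and S1pr3 in 4 and 2. Both thus passed the count filter only through progenitors, where they were high. S1pr3 had 34.1, 4.23, 40.1 and 23.6 CPM in progenitor libraries a to d, beside 2091, 38.4, 2074 and 908 CPM of mural markers. Cp had 62.4 to 105 CPM in these libraries. The 5 markers of oligodendrocyte precursors summed to 1687 to 2681 CPM in progenitors and to at most 139 CPM in stem cells. The parts of mural cells and oligodendrocyte precursors in the levels of S1pr3 and Cp were not tested. Without progenitor library c, S1pr3 was no longer called (adjusted p = 0.0555), and a fit of all 12 libraries called neither S1pr3 (adjusted p = 0.245) nor Cp (adjusted p = 0.153). None of the 7 tested in astrocytes against progenitors or of the 6 tested in astrocytes against stem cells was called. The median log2 fold change of the list was -1.24 against 0.03 for all genes in astrocytes over progenitors, -0.47 against -0.04 in stem cells over progenitors and 0.35 against 0.14 in astrocytes over stem cells. Of the 7 proliferation genes, 2 were tested in astrocytes against progenitors and 1 was lower, where 6.18% of all genes were called as lower. This was Mcm2, a subunit of the replicative helicase, with at most 1.83 CPM in astrocytes and 15.0 to 180 CPM in progenitors (log2 fold change -6.83, SE 1.75, adjusted p = 0.036). Mcm2 reached 10 counts in 4 progenitor libraries and 1 astrocyte library, so it too passed the count filter only through progenitors. The call was kept in 1 of 8 fits without a library and was lost without astrocyte library a, c or d or any progenitor library (adjusted p up to 0.157), and in a fit of all 12 libraries (adjusted p = 0.0723).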

How the data were processed

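The authors deposited raw counts per gene for 12 libraries of low cell number RNA-seq (SMARTer v4 preamplification, Nextera XT). Reads of ribosomal RNA, mitochondrial DNA and PhiX had been removed, the rest aligned to GRCm38.p4 with HISAT2 2.0.6 (per the submitters' processing notes) and counted by featureCounts without strand. No molecular identifiers are described, so intervals and floors cover counting error only. Columns of astrocytes and progenitors carry no replicate number and are called a to d. Symbols, coordinates and exonic lengths came from GENCODE M21, which matched 50376 of 50600 identifiers.

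Each pair of cell types was fitted over all genes with edgeR 4.0.16 in R 4.3.3 (TMM, quasi-likelihood test, at least 10 counts in at least 4 of 8 libraries, or 3 where a library was left out, Benjamini-Hochberg threshold of 0.05). The study used DESeq2 on transcripts that met its coverage criterion (CLEAR), which was not applied here, and DESeq2 1.42.0 was an alternative. Within-library measures (0.5 added to counts before a logarithm) and, as a test added after seeing the data, log2(CPM + 1) of each member were compared by two-sided exact permutation over libraries with scipy 1.17.1. Fits were also run on simulated counts to check the steps, and no result rests on these. Named genes are the 6 members, list genes called in any comparison (for lists with none, the 2 of highest mean), and the 3 genes most correlated with each member that had at least 10 counts in at least 4 libraries, among genes with 10 or more counts in at least 8. Genes of cell type marker lists are given as sums, and those of the neuronal and mural lists also singly. Sequences of 2 members are not reported here. Members and lists were chosen with earlier results of these data known. Alternatives were DESeq2 itself and its size factors in edgeR, a fit of all 12 libraries, no filter, a minimum of 10 counts in each library, counts thinned to equal depth, each library left out in turn and, for the measures, 0.1 or 1 added or totals without TMM factors.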

Additional observations from a re-analysis of the deposited data

Results flagged for a closer look

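In 5 of 29 groups of 4 libraries, 1 library stood apart from the other 3 by more than Dixon's 95% critical value. For normally distributed values, chance alone gives about 1 in 20. Vim was 374 CPM in progenitor library a, against 89.2 to 134 CPM in the other progenitor libraries. Lmna was 62.6 CPM in stem cell library 1, against at most 8.57 CPM in the other stem cell libraries. The remaining 3 rest on 2 to 4 counts beside libraries at 0, namely Nes at 0.524 CPM in stem cell library 2, Lmnb1 at 0.611 CPM in astrocyte library d and Lmnb1 at 0.373 CPM in stem cell library 4. Beside libraries at 0, any single value above 0 is marked, so the rate of 1 in 20 does not hold for these 3.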

How the results depend on the processing

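The call of Gfap in stem cells against progenitors was kept in 3 of 8 fits that left out a library. No paired analysis was possible because the astrocyte and progenitor columns carry no replicate number. The floor of 3 counts, 0.207 to 0.651 CPM, limits the values of each member but Gfap, which alone was above it in all libraries. Of the 6 members, DESeq2 called 1 in astrocytes against progenitors (Nes), where it called 16.7% of all genes it tested. In stem cells against progenitors it called 3 (Gfap, Nes and Lmnb1), where it called 17% of all genes it tested. Nes and Lmnb1 were at or near the floor outside progenitors, so they entered these fits only through progenitor libraries, where they were high. DESeq2-type size factors in edgeR called 1 in the first comparison (Gfap, adjusted p = 0.0484), and all 12 libraries in one fit called 0 in the second, against 0 and 1 as reported. Leaving out each library gave 0 to 2 members in both comparisons. Genes called in astrocytes against progenitors numbered 1278, and 2968 with DESeq2, 529 without the filter, 287 with a minimum of 10 counts in each library and 719 to 1871 without a library. In stem cells against progenitors they numbered 1327, and 3091 with DESeq2, 445 with all 12 libraries and 830 to 1383 without a library. In astrocytes against stem cells they numbered 6, and 876 with DESeq2, 16 without the filter, 12 with a minimum of 10 counts in each library, 343 with all 12 libraries and 0 to 8 without a library. The share called as higher moved from 28.4% to 66.6% and from 42.5% to 56.0% with a minimum of 10 counts in each library in the comparisons with progenitors, and from 100% to 41.1% with DESeq2 and 42.9% with all 12 libraries in astrocytes against stem cells, where the median of all genes was 0.14, and 0.22 and 0.29 with DESeq2-type size factors and DESeq2. The difference of log2 Lmna over Lmnb1 between astrocytes and progenitors, 0.03, turned to -0.21 with 1 added to counts, and was -1.54 to 1.504, -1.07 to 2.18 (stem cells against progenitors) and -2.25 to 1.10 (astrocytes against stem cells) without a library. The summed CPM per kb of astrocytes over stem cells was -63.0 to 9.70 without a library. Among single genes, Zmpste24 in astrocytes over progenitors turned to 0.021 with thinned counts. Without a library, Zmpste24 (-0.41 to 0.36), Lmnb2 (-0.57 to 0.69) and Tor1aip1 (-0.89 to 0.10) turned in this comparison, Gfap (-0.31 to 0.21), Lmna (-1.10 to 2.62) and S1pr3 (-0.17 to 1.42) in astrocytes over stem cells, and Vim (-0.90 to 0.21), Synm (-1.76 to 0.40) and Fnta (-0.052 to 0.28) in stem cells over progenitors. The cause of these changes was not tested.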
